A study of Mus musculus with 12 samples.

Results

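The liver RNA described here came from male C57Bl/6J mice, 13 weeks of age, that ate a diet with 0.5% norUDCA for 1 week. NorUDCA, norursodeoxycholic acid, is ursodeoxycholic acid with a shortened side chain, a bile acid under study for cholestatic liver disease. The 6 norUDCA libraries of the 12 in the series were selected by their diet label, and no other criterion was used. They carry the sample numbers WT9, WT10, WT11, WT12, WT13 and WT20 and are called libraries 9, 10, 11, 12, 13 and 20. The other 6 libraries, from chow-fed mice, were not analysed here, so nothing below is a response to the diet. The question was which transcripts fill these livers and which ones differ, and differ together, from liver to liver under 1 diet. The labels do not state that each library is a separate animal, so every p-value measures the spread between libraries. The labels state neither the clock time of collection nor the feeding state.

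Bile acids are made from cholesterol in hepatocytes, mainly by a route that starts with Cyp7a1 and uses Cyp8b1 to set the share of cholic acid. The nuclear receptor FXR (Nr1h4) senses them and raises Nr0b2 (SHP), a repressor of Cyp7a1, while PXR and CAR (Nr1i3) raise detoxifying enzymes such as Cyp3a11 and Cyp2b10. Liver mRNA also follows the day-night clock, feeding, inflammation and growth hormone, all of which can differ between mice fed alike.

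Total counts were 14065837 to 15342922 per library, and 17401 to 18272 genes had at least 1 count. Of 35275 genes in the table, 11927 averaged at least 1 CPM (the count relative to the TMM-scaled library total) over the 6 libraries and were tested. Of these, 8294 (69.5%) differed between libraries by more than counting error gives. A stricter test asked which genes spread more than genes of like abundance, and 447 genes (3.75%) were called variable by it at an adjusted p under 0.05. Both are edgeR goodness-of-fit tests adjusted over all 11927 genes by the Benjamini-Hochberg method. The spread is given as the biological coefficient of variation (BCV), an estimate of the relative spread beyond counting. The BCV of each gene was moderated toward that of genes of like abundance, so for a steady gene it can exceed the plain coefficient of variation. Its median was 14.4% over tested genes and 35.8% over called genes. In each pair of libraries 25.9% to 38.1% of genes differed past counting error, so no library was a repeat deposit of another.

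Several libraries stood apart and bear on the results. Libraries 11 and 12 held transcripts of lung epithelium, library 13 was alone in Usp9y and highest in interferon-induced genes, and library 20 was nearly devoid of Yam1 and Lars2. The first principal component of the 500 genes with the highest variance took 49.4% of the variance and set libraries 11 (24.2) and 12 (20.4) against the others (-13.8 to -9.48). The third took 15.0% and set library 13 (-18.4) against the rest (-1.42 to 7.28). Without libraries 11 and 12, 310 of 11824 tested genes (2.62%) were called variable, 269 of them among the 447. Of the 447 genes, 42 fell under 1 CPM on average once libraries 11 and 12 were set aside.

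Hepatocyte transcripts filled the libraries. Levels between genes are compared as TPM, counts per unit of listed gene length with an equal sum in every library. Alb, the main plasma protein, led at 48712 ± 4924 TPM (SD, n = 6), and the 10 most abundant genes held 21.4% of all TPM. The top 100 held 51.4%, while 1122 genes reached 100 TPM and 13 reached 10000 TPM. The 50 genes with the most counts took 33.7 ± 1.11% of the counts per library (SD, n = 6), and mitochondrially encoded genes took 5.18 ± 0.466%. No hepatocyte marker was variable (0 of 10, median BCV 13.2%), and their summed level ran from 73123 CPM in library 13 to 88086 CPM in library 9. All 6 libraries thus carried the hepatocyte profile that their liver label names.

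Apolipoproteins and plasma carriers were among the abundant transcripts below Alb. Apoa2 averaged 23914 ± 3141 TPM, Apoe 23409 ± 2597 TPM, Apoc1 11755 ± 1080.1 TPM and Apoa1 11309 ± 1376 TPM (SD, n = 6). Ttr, which carries thyroid hormone and retinol-binding protein, averaged 8271 ± 421 TPM, the fetuin Ahsg 7686 ± 669 TPM and the vitamin D-binding protein Gc 5663 ± 227 TPM. Of the 45 secreted plasma proteins tested, 3 were variable (Fgl1, Serpina1e and Itih4), with a median BCV of 13.1%. That share was 6.67%, beside 3.75% of all tested genes. The top 25 held 6 mitochondrial genes, led by mt-Co1 at 25983 ± 2829.6 TPM, and 0 of 12 tested mitochondrially encoded genes were called variable.

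Cyp3a11 was the 7th most abundant transcript at 13196 ± 1121 TPM (SD, n = 6). It is a drug- and bile acid-hydroxylating cytochrome P450 under PXR control. Its 6 values lay between 14279 CPM (library 10) and 18352 CPM (library 20), with a median of 16171 CPM and a BCV of 13.0%, so this enzyme was steady at a very high level. Other detoxifying enzymes of the top 25 were Gstm1 (7166 ± 803 TPM), a glutathione transferase, Cyp2e1 (6157 ± 1024 TPM) and the microsomal Mgst1 (5648 ± 432 TPM). The pheromone carrier Mup3 averaged 11316 ± 829 TPM (SD, n = 6).

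**Figure D1:**
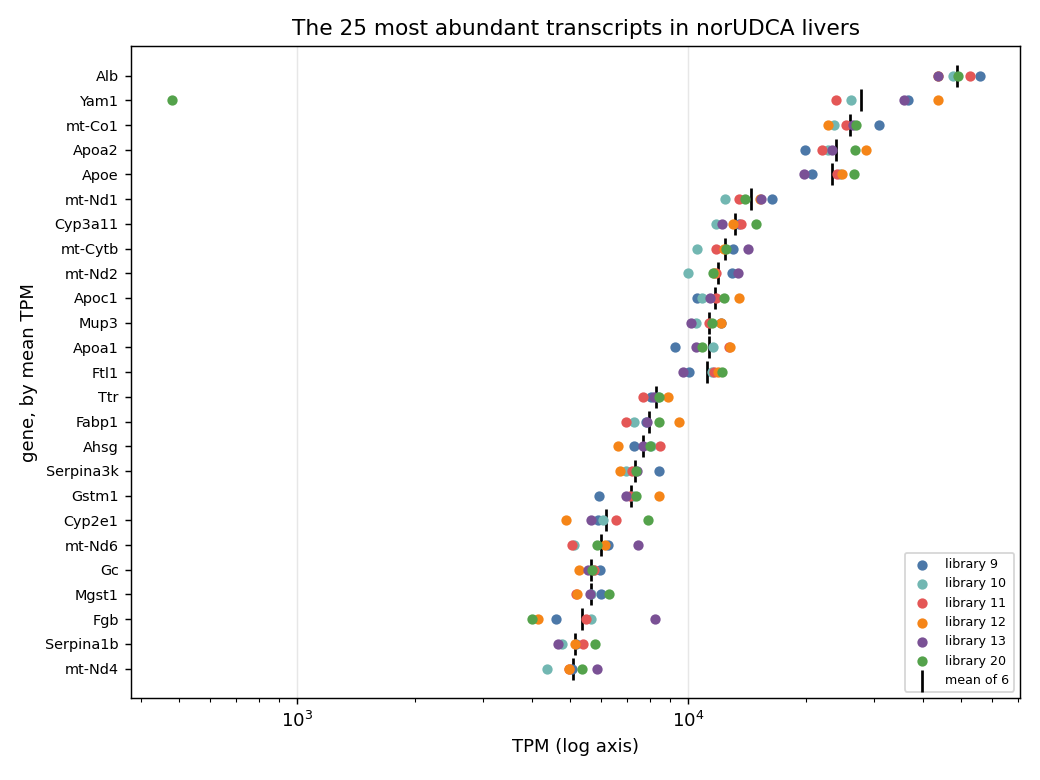
TPM (log axis) of the 25 genes with the highest mean TPM, one row per gene, with a point per norUDCA library and a vertical mark at the mean of 6. The points of a gene lie close together except for Yam1, which is at 478 TPM in library 20 and at 23862 TPM or more in the others.

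The second most abundant entry was Yam1 (ENSMUSG00000098178, annotated as a lincRNA at chr17:39846958-39848788), at 27713 ± 15172 TPM. Which RNA the reads counted under this entry came from was not tested. Yam1 had 22083 to 42193 CPM in 5 libraries and 459 CPM in library 20. Lars2, the mitochondrial leucyl-tRNA synthetase (chr9:123366940-123462664), had 1550.4 to 3085 CPM in the same 5 libraries and 36.2 CPM in library 20. Both were called variable (BCV 79.3% and 78.9%), and both lost the call without library 20 (adjusted p = 0.35 and 0.457). Library 20 also had the highest share of counts in protein-coding genes, 99.4% against 95.1% to 97.1% elsewhere. They fell into a covarying group of 14 genes that was lowest in library 20 and included Chrna4 (2.34 CPM there, 9.19 to 17.5 CPM elsewhere, adjusted p = 1.0 without library 20). The part of that share in the Yam1 and Lars2 values was not tested.

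At the other end stood the steadiest transcripts. Bhmt2, a betaine-homocysteine methyltransferase relative, ran from 266 to 275 CPM, a coefficient of variation of 1.18%. The mitochondrial citrate carrier Slc25a1 ran from 246 to 255 CPM and the poly(A)-binding protein Pabpc1 from 249 to 257 CPM. Dazap2, Nub1, Cdc42, Cap1, Fads1, Capzb and Ywhae completed the 10 steadiest genes of at least 20 CPM, all under 2% (highest 1.91%, Ywhae).

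**Figure D2:**
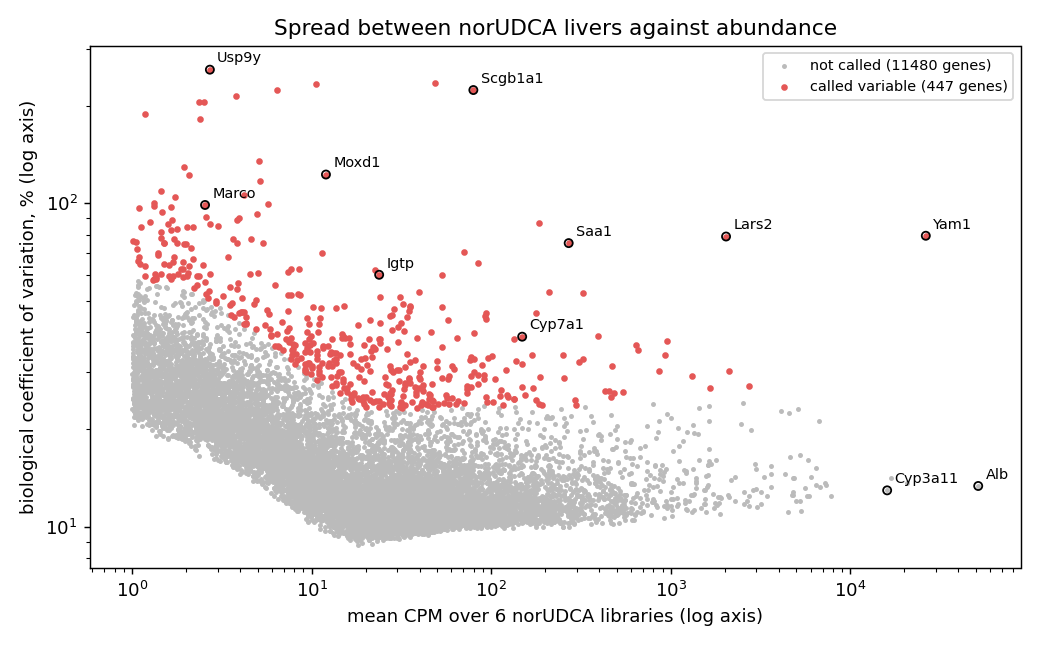
Biological coefficient of variation in % against mean CPM for the 11927 tested genes (both axes log), with the 447 variable genes in red and named genes circled. Scgb1a1, Usp9y and Moxd1 lie far above genes of like abundance, while Alb (13.4%) and Cyp3a11 (13.0%) sit in the main band.

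The bile acid pathway was steady except for its main enzyme genes and SHP. Of the 17 genes tested that make or conjugate bile acids, 2 were variable (11.8%, against 3.75% of all tested genes). Of 24 of transport and sensing, 1 was (4.17%). Cyp7a1, the rate-limiting enzyme, had 56.6 CPM in library 13, 103 CPM in library 10, 134 CPM in library 12, 151 CPM in library 20, 164 CPM in library 11 and 284 CPM in library 9. It thus spread 5.01-fold (BCV 38.7%; adjusted p = 2.11e-09), and the call held in the fit of every 5 libraries. Cyp8b1, the sterol 12-alpha-hydroxylase, had 227 CPM in library 13 and 470 to 599 CPM in the others (BCV 25.9%; adjusted p = 0.0103). Nr0b2 (SHP) had 23.3 CPM in library 13 and 8.72 to 13.7 CPM in the others (BCV 29.0%; adjusted p = 0.00958). Library 13 therefore had the lowest Cyp7a1 and Cyp8b1 and the highest Nr0b2 of the 6. Without it Cyp8b1 and Nr0b2 were not called (adjusted p = 1.0 for each), and 1 gene of synthesis and 0 of transport remained in the count.

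Cyp7a1 was tested with Cyp8b1 and with Nr0b2, and neither pair passed the exact test over the 6 libraries. Cyp8b1 with Nr0b2 was not tested. Cyp7a1 and Cyp8b1 had r = 0.728 (exact permutation p = 0.151, adjusted p = 0.384) and rho = 0.371 (exact permutation p = 0.497, adjusted p = 0.752). Without the 2 libraries farthest from the Cyp7a1 median, 9 and 13, r was -0.254, so the positive value rested on them. Cyp7a1 and Nr0b2 had r = -0.556 (exact permutation p = 0.271, adjusted p = 0.564) and rho = -0.371 (exact permutation p = 0.497, adjusted p = 0.752), with r = -0.779 without libraries 9 and 13. Without library 13 alone both changed sign, to -0.252 for Cyp7a1 with Cyp8b1 and 0.544 for Cyp7a1 with Nr0b2.

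Among the steady members, Cyp7b1, the oxysterol hydroxylase, had 153 to 279 CPM (BCV 21.6%; adjusted p = 0.174). Cyp27a1, which starts the alternative route, had 748 to 904 CPM (BCV 11.5%). The bile salt export pump Abcb11 had 702 to 870 CPM, the conjugate pump Abcc2 999.7 to 1518 CPM, the basolateral pump Abcc3 642 to 813 CPM and the uptake carrier Slc10a1 620 to 815 CPM. Slco1a4, a sinusoidal organic anion carrier, had 256 to 306 CPM, and the receptors Nr1h4 and Nr1i3 had 111 to 149 CPM and 84.1 to 108 CPM. None of these passed the test of spread above like genes, so the transporters and receptors differed between livers about as most genes did.

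Of 29 tested PXR and CAR targets, 4 (13.8%, beside 3.75% of all tested genes) were variable (Ugt1a9, Gadd45b, Cyp2a5 and Cyp2b10). Cyp2b10, the classic CAR target, had 271 CPM in library 13 and 127 to 136 CPM in the other 5. The call (BCV 25.6%; adjusted p = 0.0114) was lost without library 13 (adjusted p = 1.0), and so was that of the coumarin hydroxylase Cyp2a5 (0.293; 0.0731 without library 12). The list then had 2 variable genes. Cyp3a11 and Cyp2b10, which share regulators, were not correlated (r = -0.327, exact permutation p = 0.497, adjusted p = 0.636; rho = 0.371, exact permutation p = 0.497, adjusted p = 0.752). Without libraries 10 and 20, farthest in Cyp3a11, r was -0.993, and without library 13 alone it was 0.809. Cyp2c55 had 129 to 251 CPM (adjusted p = 0.426).

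Of 35 NRF2 and glutathione genes, 3 were variable (8.57%, beside 3.75% of all tested genes). Hmox1, haem oxygenase, had 13.0 CPM in library 20, a median of 17.1 CPM and 37.5 CPM in library 13, with library 10 at 35.7 CPM. Gsta1 had 189 CPM in library 20 and 86.0 to 121 CPM elsewhere, and lost its call without library 20 (adjusted p = 1.0), 13 (0.151) or 9 (0.0539). Gstp2, at 2.60 to 11.1 CPM, lost it without library 11 (adjusted p = 0.66). Gstm3, at 1006 to 2373 CPM, was not called (adjusted p = 0.0902) but was without library 13 (0.0473) or 20 (0.0479). Gstm1 and Gstm3, neighbours in 1 cluster, moved together (r = 0.956, exact permutation p = 0.00972, adjusted p = 0.0389; rho = 0.943, exact permutation p = 0.0167, adjusted p = 0.0779), lowest in library 9 and highest in library 12. Without libraries 9 and 12 r was 0.705.

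Acute-phase genes varied together over a wide range. These hepatocyte genes are raised in inflammation by interleukin 6 and interleukin 1. Of 25 tested, 12 were variable (48.0%), and the median r over their pairs was 0.736, against -0.00051 over all pairs of tested genes. Saa2 had 10.6 CPM in library 12, 26.8 CPM in library 20, 104 CPM in library 9, 140 CPM in library 11, 337 CPM in library 13 and 487 CPM in library 10. Saa1 followed in the same order, with 33.9, 55.3, 155, 209, 571 and 595 CPM. The highest and lowest livers were thus 46.0-fold apart in Saa2 and 17.5-fold apart in Saa1. Lcn2, an iron-sequestering lipocalin, had 12.3 CPM in library 12, a median of 37.0 CPM and 178 CPM in library 13. Steap4, a metalloreductase induced by the same cytokines, had 100 CPM in library 12, a median of 281 CPM and 767 CPM in library 10.

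Of the 12 called acute-phase genes, 9 were lowest in library 12, 6 were highest in library 10 and 5 in library 13. Saa1 and Saa2 had r = 0.992 (exact permutation p = 0.00139, adjusted p = 0.00973; rho = 1.0, exact permutation p = 0.00278, adjusted p = 0.0195), but their sequences are close and reads can be shared. Saa1 also moved with Lcn2 (r = 0.96, exact permutation p = 0.0111, adjusted p = 0.0389; rho = 0.886, exact permutation p = 0.0333, adjusted p = 0.133) and with Orm2, orosomucoid 2 (r = 0.933, exact permutation p = 0.00417, adjusted p = 0.0234; rho = 0.943, exact permutation p = 0.0167, adjusted p = 0.0779). Leaving out libraries 10 and 12, the farthest in Saa1, left r at 0.992, 0.91 and 0.915 for the 3 pairs. The list had 8 variable genes without library 13 and 11 without libraries 11 and 12. Itih4 (1179 to 2600 CPM) and Saa4 (205 to 444 CPM) were among those lost without library 13 (adjusted p = 0.445 and 0.593).

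Socs3, the feedback inhibitor that the same cytokine signal induces, had 14.1 CPM in library 12, a median of 57.9 CPM and 202 CPM in library 10 (BCV 65.5%; adjusted p = 1.07e-34). It sat in a covarying group of 32 genes with Steap4, the kinase gene Pim1 (10.3 to 34.1 CPM), Bhlhe40 (76.4 to 291 CPM) and the mRNA-decay factor Zfp36l1 (24.1 to 54.9 CPM), highest in library 10 and lowest in library 12. A neighbouring group of 31 genes held Saa4, Itih4, Stat2 (29.6 to 68.3 CPM) and Hmox1 and was high in libraries 13 and 10. Fgl1, a hepatocyte-secreted fibrinogen-like protein, had 415 CPM in library 13, a median of 152 CPM and 76.5 CPM in library 12. Library 10 thus led the first set, and libraries 13 and 10 the second. Zfp36l1 lost its call without library 12 (adjusted p = 0.297) and Stat2 without library 13 (0.216) or 20 (0.0651).

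Metallothioneins, zinc- and copper-binding proteins, were abundant and paired. Mt1 averaged 4712 ± 1918 TPM and Mt2 3216 ± 1537 TPM (SD, n = 6). Mt1 had 865 CPM in library 9, a median of 1151 CPM and 2309 CPM in library 13, and Mt2 had 536, 832 and 1739 CPM at the same points. Their r was 0.99 (exact permutation p = 0.00139, adjusted p = 0.00973; rho = 1.0, exact permutation p = 0.00278, adjusted p = 0.0195), and 0.964 without libraries 9 and 13. Of 17 metal-handling genes 4 (23.5%, beside 3.75% of all tested genes) were variable (Smad7, Mt2, Hamp and Mt1). Hamp, hepcidin, the iron hormone that inflammation and BMP signals raise, had 441 CPM in library 9 and 1216 CPM in library 12, an order unlike that of Saa1. Without library 13 Mt1 and Mt2 were not called (adjusted p = 0.796 and 0.128), which left 2, and without library 9 Hamp was not (0.107).

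**Figure D3:**
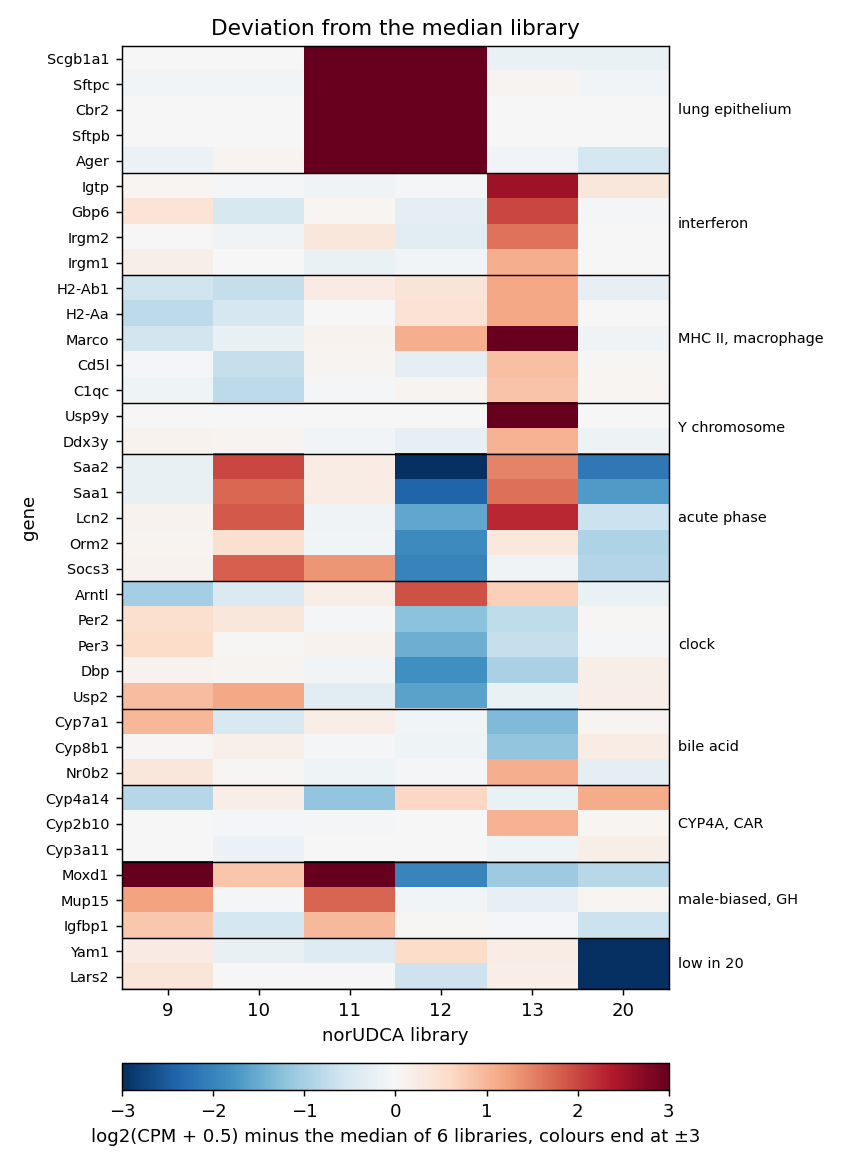
Deviation of each library from the median of the 6, as log2(CPM + 0.5), for named genes in rows and norUDCA libraries in columns. Lung genes are high in libraries 11 and 12, interferon and MHC class II genes in library 13, acute-phase genes in libraries 10 and 13 and low in 12 and 20, and Yam1 and Lars2 low in library 20.

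Clock genes varied widely, with Arntl and Per2 in opposite order. In the liver clock Arntl (Bmal1) and its partner Clock switch on the Per genes, Ciart, Dbp and Usp2, and Arntl peaks at the opposite time of day from Per2 and Dbp. Of 11 tested core clock genes 4 were variable (36.4%), and of 11 output genes 5 (45.5%). Arntl had 1.24 CPM in library 9, 2.11 CPM in library 10, 2.54 CPM in library 20, 3.55 CPM in library 11, 5.22 CPM in library 13 and 12.6 CPM in library 12. Per2 ran in exactly the reverse order, with 32.3, 29.3, 23.4, 22.3, 13.2 and 9.50 CPM in those libraries. Dbp had 21.4 CPM in library 12, 39.3 CPM in library 13 and 73.0 to 87.2 CPM in the other 4. Usp2, a clock-driven deubiquitinase, had 9.16 CPM in library 12, a median of 29.1 CPM and 65.2 CPM in library 10.

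Arntl and Per2 had r = -0.971 (exact permutation p = 0.00139, adjusted p = 0.00973; rho = -1.0, exact permutation p = 0.00278, adjusted p = 0.0195). Arntl and Dbp had r = -0.931 (exact permutation p = 0.00556, adjusted p = 0.0259; rho = -0.829, exact permutation p = 0.0583, adjusted p = 0.181). Without libraries 9 and 12, the farthest in Arntl, r was -0.954 and -0.91. Ciart (8.13 to 38.1 CPM), Per3 (8.61 to 36.3 CPM), Wee1 (5.62 to 23.8 CPM) and Bhlhe40 were also variable. Arntl with Nr1d1 (r = 0.486, exact permutation p = 0.332, adjusted p = 0.581; rho = 0.657, exact permutation p = 0.175, adjusted p = 0.408) and Dbp with Usp2 (r = 0.86, exact permutation p = 0.0222, adjusted p = 0.0691; rho = 0.714, exact permutation p = 0.136, adjusted p = 0.381) did not pass. The core list had 2 variable genes without library 12, and Arntl and Per3 lost their calls (adjusted p = 0.581 and 0.0805).

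**Figure D4:**
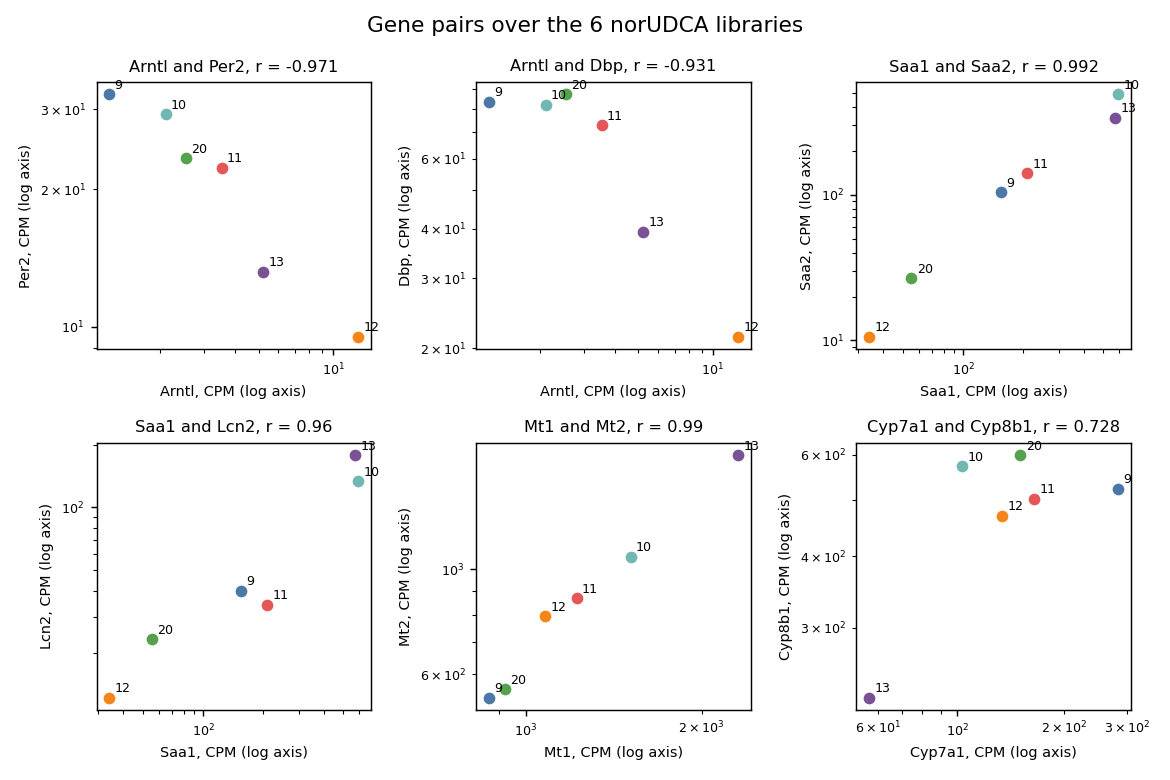
CPM of 6 gene pairs on log axes, with a point for each norUDCA library marked by its number and Pearson r on the log2 scale above each panel. Arntl falls as Per2 and Dbp rise, the Saa and Mt pairs run along a line, and library 13 sits alone at the low corner for Cyp7a1 and Cyp8b1.

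Genes of feeding and growth hormone formed further patterns. Of 19 gluconeogenesis and fasting genes 6 were variable, and of 15 of the growth hormone and IGF axis 4 were. Of 24 male-biased genes 6 were variable, and of 14 major urinary proteins 6 were. Each of these shares was above the 3.75% of all tested genes. Moxd1, a male-biased monooxygenase-like gene, had 36.8 CPM in library 11 and 29.6 CPM in library 9, but 3.93 CPM in library 10 and under 1 CPM in libraries 20 (0.911), 13 (0.677) and 12 (0.137). Its BCV was 123% (adjusted p = 7.41e-82), and the call held in the fit of every 5 libraries. Mup15 had 73.0 CPM in library 11, 50.4 CPM in library 9 and 18.02 to 22.6 CPM in the rest, and all 6 called Mup genes were highest in library 11. Reads may be shared among near-identical copies, as in the Mup, Saa, Cyp4a, Gstm and Serpina1 families, so their single values are uncertain. Mup7 had 161 to 490 CPM, Mup16 8.88 to 28.3 CPM and Mup11 25.3 to 65.3 CPM. Without library 11 the Mup list had 3 variable genes, and Mup11 was among those not called (adjusted p = 0.183).

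Igfbp1, an insulin-repressed IGF-binding protein, had 1103 CPM in library 11, 978 CPM in library 9 and 359 to 572 CPM in the rest. Irs2, the insulin receptor substrate, had 65.6 CPM in library 11, 56.5 CPM in library 9, 43.7 CPM in library 10 and 17.7 to 26.1 CPM in the other 3. Libraries 9 and 11 thus shared high Moxd1, Mup15, Igfbp1 and Irs2. Pck1, phosphoenolpyruvate carboxykinase, was steady at 4524 to 5544 CPM and not correlated with Igfbp1 (r = 0.543, exact permutation p = 0.282, adjusted p = 0.564; rho = 0.257, exact permutation p = 0.658, adjusted p = 0.801). Cdkn1a, the cell-cycle inhibitor p21, had 6.00 CPM in library 11, 6.36 CPM in library 9, 10.4 CPM in library 20 and 27.4 to 50.5 CPM in libraries 10, 13 and 12. Bcl6, a repressor under growth hormone control, was lowest in library 10 (23.7 CPM, against 47.5 to 71.8 CPM), and lost its call without it (adjusted p = 1.0). The growth hormone list then had 2 variable genes. Socs2 (7.79 to 18.3 CPM) lost its call without library 9, 10, 11, 13 or 20 (adjusted p of 0.0529 to 0.293) and kept it without library 12.

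Of 31 PPAR-alpha and fatty acid oxidation genes, 7 were variable (22.6%). Cyp4a14, a fatty acid omega-hydroxylase and PPAR-alpha target, had 22.6 CPM in library 11, a median of 52.2 CPM and 111 CPM in library 20 (BCV 43.7%; adjusted p = 1.25e-12). Vnn1, vanin 1, was ordered alike at the ends, with 11.9 CPM in library 11 and 46.6 CPM in library 20. Both were in a covarying group of 12 genes with Lgals1 and the lipid-droplet gene Fitm1 (16.6 to 51.4 CPM), highest in library 20 and lowest in libraries 11 and 9. Cyp4a10 did not follow Cyp4a14 (r = 0.258, exact permutation p = 0.633, adjusted p = 0.739; rho = 0.2, exact permutation p = 0.714, adjusted p = 0.833), and r was -0.932 without libraries 11 and 20 and -0.55 without library 20 alone. Acot3 had 0.474 to 5.599 CPM and Cyp4a32 11.7 to 50.2 CPM, both in families with close copies. Lgals1 lost its call without library 20 (adjusted p = 0.364).

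Of the fatty acid synthesis genes, the elongase gene Elovl6 was variable, had 126 to 298 CPM and lost its call without library 9 (adjusted p = 1.0) or 13 (0.293) and with scaling by total counts (0.0661). Fasn (1034 to 2137 CPM) and Scd1 (4619 to 8004 CPM) were not called (adjusted p = 0.363 and 0.512). Among zonal genes, 1 of 16 pericentral genes (Slc1a2, 63.1 CPM in library 12 and 234 CPM in library 9) and 1 of 18 periportal genes (Ctsc, 24.5 to 53.8 CPM) were variable, which is 6.25% and 5.56% beside 3.75% of all tested genes. Without library 10 or 11, 2 pericentral genes were variable. Slc1a2 was not called without library 12 (adjusted p = 0.195), and Ctsc without library 13 (1.0), 10 (0.0616) or 20 (0.0602). Of 13 tested female-biased genes 4 (30.8%) were variable (Abcd2, Acot3, Cyp2c69 and Nipal1), with 2 left without libraries 11 and 12.

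Immediate early genes, which rise within minutes of a stimulus, were variable in 8 of 17 cases (47.1%). Junb had 231 CPM in library 11, 209 CPM in library 10 and 63.8 to 109 CPM in the rest. Myc had 26.3 and 25.9 CPM in libraries 11 and 9 and 9.76 to 15.0 CPM in the rest, and Atf3 had 4.40 CPM in library 13 and 16.5 CPM in library 9. Of the 8 called members, 4 were highest in library 9, 2 in library 10 and 2 in library 11. The summed level of 19 members was 922, 1096 and 1091 CPM in libraries 9, 10 and 11. It was 647, 624 and 700 CPM in libraries 12, 13 and 20. The median r over pairs of tested members was 0.289, against -0.00051 over all pairs of tested genes. Fos and Egr1 had r = 0.709 (exact permutation p = 0.146, adjusted p = 0.384; rho = 0.829, exact permutation p = 0.0583, adjusted p = 0.181). Of 22 heat shock and ER chaperone genes 3 (13.6%) were variable (Hspa1b, Creld2 and Manf), beside 3.75% of all tested genes. Without library 11 or without library 13, 1 of the chaperone genes was. Hspa1b had 4.49 to 16.1 CPM and shares nearly all its sequence with Hspa1a. Of 11 p53 targets 2 (18.2%) were variable (Cdkn1a and Sesn2), and 1 was without library 10 or without library 11.

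Cell-cycle genes set library 9 apart. Mki67, a proliferation marker, had 14.8 CPM in library 9, 9.35 CPM in library 13 and 1.89 to 4.42 CPM in the others. Top2a, topoisomerase II alpha, had 8.99 CPM in library 9, 6.10 CPM in library 13 and 1.64 to 3.58 CPM in the others. Ccnb1, the mitotic cyclin B1, had 5.78 CPM in library 9 and 0.477 to 1.82 CPM in the others. Ccnd1, cyclin D1, had 29.5 CPM there and 11.5 to 16.1 CPM elsewhere. Of the 24 tested, 6 were variable, beside 3.75% of all tested genes. All 6 were highest in library 9, and the median r over pairs of tested members was 0.709. Mki67, Top2a and Ccnb1 were in a covarying group of 21 genes. Without library 9, 4 of the 24 tested cell-cycle genes averaged under 1 CPM and were not tested. They had passed that minimum only through library 9. Of the 20 that remained, 1 was called, and Ccnb1, Ccnd1 and Top2a were not (adjusted p = 1.0, 1.0 and 0.248). Scaling by total counts gave 4 variable members.

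Of 33 listed cytosolic ribosomal protein genes, 1 was variable (Rps29, 80.8 CPM in library 9 and 200 CPM in library 12). The median r over pairs of the 33 was 0.843, and their median BCV was 12.4%. Rpl38, Rps21 and Rps28, which are not on the list and were named after their values were seen, were also variable (adjusted p = 0.021, 0.0238 and 0.0329), each lowest in library 9 and highest in library 12, with Rps21 at 123 and 295 CPM and Rps28 at 62.1 and 148 CPM in those 2. The summed level of the 33 listed genes was 7628 CPM in library 9, 8628 to 9554 CPM in the next 4 and 9942 CPM in library 12. All 33 were lowest in library 9. Rps29 lost its call without library 12 (adjusted p = 0.986) or 9 (0.163), and so did Rps21 (1.0 and 0.15) and Rps28 (0.948 and 0.271).

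**Figure D5:**
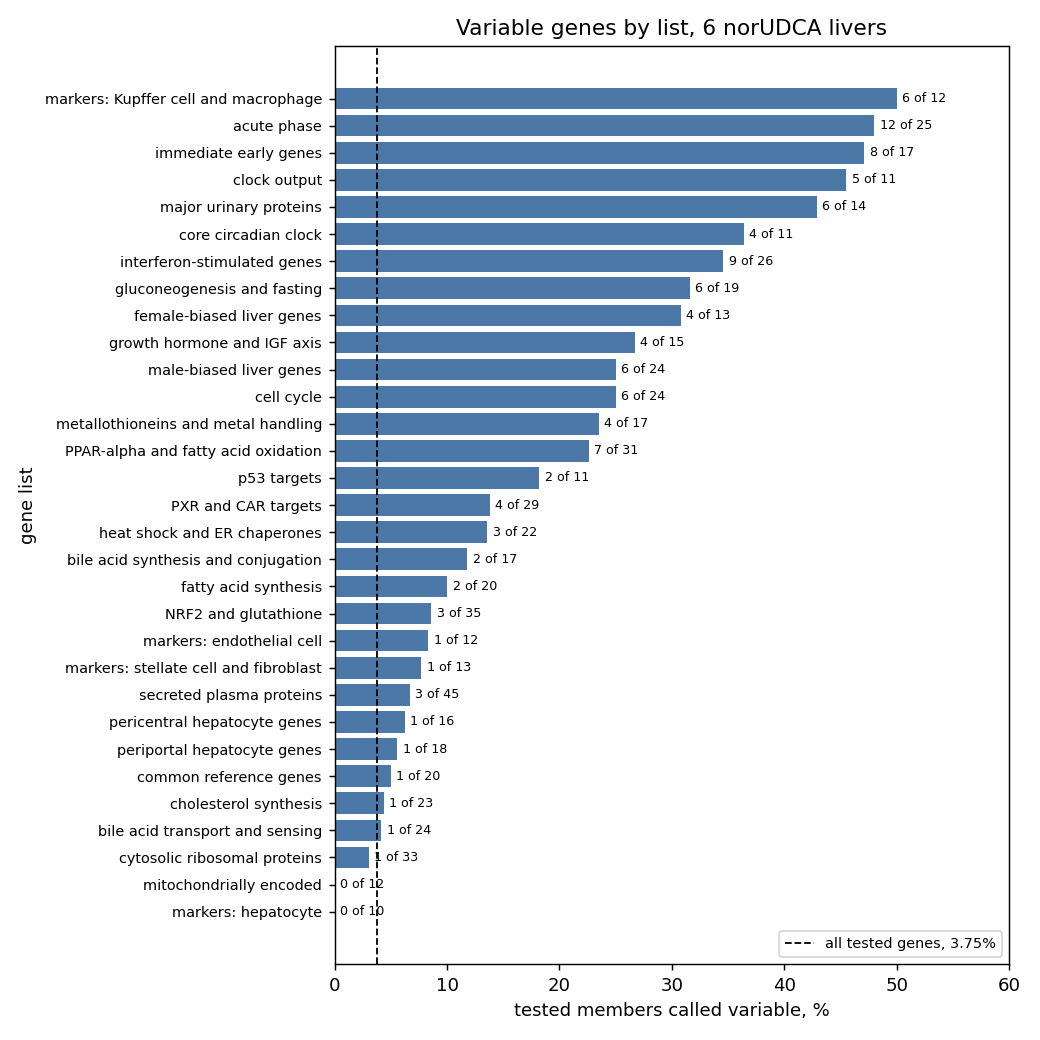
Share of tested members called variable, in %, for gene lists with at least 10 tested members (lists chosen after the values were seen are not shown), with called and tested numbers at each bar and a dashed line at 3.75% for all tested genes. Kupffer cell, acute-phase, immediate early, clock output and major urinary protein lists lie highest, and hepatocyte markers and mitochondrially encoded genes lie at 0.

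Library 13 was highest in the interferon-induced genes. Of 26 listed interferon-stimulated genes 9 were variable (34.6%), and all 9 were highest in library 13. Igtp had 76.4 CPM in library 13 and 11.8 to 16.4 CPM in the other 5 (BCV 60.1%; adjusted p = 6.4e-30). Irgm2 had 65.1 CPM there and 16.2 to 26.1 CPM elsewhere, and Irgm1 75.9 CPM and 30.4 to 39.997 CPM. Without library 13 none of the 3 was called (adjusted p = 1.0 for each). Gbp6, a guanylate-binding protein, had 66.5 CPM in library 13 and 11.4 to 21.5 CPM elsewhere. These are GTPases that interferon-gamma induces and that act against pathogens inside the cell. A list of such GTPases, chosen after the values were seen and sharing members with the first, had 10 variable genes of 13 tested, all highest in library 13. By contrast, Isg15, typical of type I interferon, had 9.76 CPM in library 13 and 3.96 to 5.19 CPM elsewhere and was not called (adjusted p = 0.743). Isg15 and Ifit1 were not correlated (r = 0.4, exact permutation p = 0.458, adjusted p = 0.636; rho = 0.0857, exact permutation p = 0.919, adjusted p = 0.919). Without library 13, 0 genes of either list were called variable.

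The promoters of 3 of these GTPase genes are shown because the genes are led by library 13 and hold the letters that interferon-responsive factors are known to bind. They are the 300 bases from 250 before to 50 after the gene start in RefSeq (GRCm38.p6), on the gene's own strand, for Igtp (chr11:58199306-58199605), Irgm2 (chr11:58214727-58215026) and Irgm1 (chr11:48871371-48871670, minus strand). Capitals mark matches to TTTC, any 2 bases and TTTC, the core of the interferon-stimulated response element (ISRE), and to TTCNNNGAA, the STAT site, each searched on both strands.
Igtp: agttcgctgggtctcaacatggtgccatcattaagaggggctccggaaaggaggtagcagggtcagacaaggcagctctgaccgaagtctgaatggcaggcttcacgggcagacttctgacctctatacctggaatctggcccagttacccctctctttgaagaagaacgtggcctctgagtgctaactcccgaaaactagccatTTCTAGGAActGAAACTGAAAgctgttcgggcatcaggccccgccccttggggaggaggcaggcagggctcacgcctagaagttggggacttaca
Irgm2: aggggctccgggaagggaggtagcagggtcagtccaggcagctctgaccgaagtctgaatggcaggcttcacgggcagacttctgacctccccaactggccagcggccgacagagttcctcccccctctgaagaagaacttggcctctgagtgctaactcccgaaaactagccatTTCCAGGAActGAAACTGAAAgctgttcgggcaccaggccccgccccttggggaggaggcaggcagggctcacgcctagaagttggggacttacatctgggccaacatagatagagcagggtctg
Irgm1: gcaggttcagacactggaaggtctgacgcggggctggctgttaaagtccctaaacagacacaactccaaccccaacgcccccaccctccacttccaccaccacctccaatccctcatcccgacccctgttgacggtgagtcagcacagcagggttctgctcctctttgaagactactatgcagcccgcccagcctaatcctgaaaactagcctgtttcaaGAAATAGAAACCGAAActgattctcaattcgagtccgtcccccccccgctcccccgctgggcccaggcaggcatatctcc
Igtp and Irgm2 each held 1 ISRE and 1 STAT match side by side, and Irgm1 held overlapping ISRE matches (2) and 0 STAT matches. The ISRE letters were in 3.44% of 32851 promoters of this length, in 11 of 20 interferon-list genes with a promoter and in 10 of 11 of the GTPase list. The STAT letters were in 8.3% of all promoters, 6 of the 20 and 7 of the 11. The counts for the 2 lists are minimums, because 1 chromosome was left out of their search. Any list member on it counts as without a match. A match describes the sequence and is not a measured binding site.

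Further genes moved with library 13. MHC class II genes, which present antigen, were variable in 5 of 6 tested (a list chosen after the values were seen), all highest there. H2-Ab1 had 32.2 CPM in library 13 and 8.42 to 18.5 CPM elsewhere, and Cd74, the invariant chain, 74.997 CPM and 24.9 to 45.4 CPM. Of 12 tested Kupffer cell and macrophage markers 6 were variable, beside 3.75% of all tested genes, and 5 of the 6 were highest in library 13. Marco, a macrophage scavenger receptor, had 11.2 CPM there and 0.292 to 1.98 CPM elsewhere, and Cd5l 61.3 CPM and 20.1 to 34.6 CPM. The summed level of the 13 macrophage markers in the table was 301 CPM in library 13 and 130 to 247 CPM in the others. Fewer cells of a type and less RNA per cell cannot be told apart in bulk tissue. Without library 13, 1 gene of each list was called (Marco then averaged under 1 CPM and was not tested), and without library 10, 3 macrophage markers were (without library 13, adjusted p = 0.094 for H2-Ab1, 0.239 for Cd74 and 0.973 for Cd5l).

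Usp9y, a Y-linked ubiquitin protease, had 240 counts in library 13 (16.3 CPM) and 0 in each of the other 5. With a floor of 3 counts in a library, it was at least 74.3-fold higher in library 13 than in any other. Its Y-linked neighbour Ddx3y, an RNA helicase, was detected in all, at 153 CPM in library 13 and 61.7 to 78.8 CPM in the rest. Uty had 21.95 CPM in library 13 and 13.2 to 17.1 CPM in the rest and was not called (adjusted p = 1.0). Ddx3y, Usp9y, Gbp6, Irgm2 and Tgtp1 led a covarying group of 19 genes that was high in library 13, and Cyp2b10 and Nr0b2 were also among its members. All 6 libraries carry the same strain and sex label. Without library 13 the Ddx3y call was lost (adjusted p = 1.0).

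Neuronal genes (a list chosen after the values were seen) were low but ordered alike, with 6 of 7 tested members variable and all 6 highest in library 13. Tubb3 had 3.73 CPM in library 13, 3.48 CPM in library 11, 1.89 CPM in library 20, 0.478 and 0.292 CPM in libraries 12 and 9 and 0 in library 10. Prph, a neurofilament protein of peripheral nerves, had 4.88 CPM in library 13 and 2.21 CPM in library 20, with 0.0731 CPM in library 9. Uchl1, a neuronal hydrolase, shared a covarying group of 26 genes with the MHC class II genes. The summed level of the 16 neuronal genes was 44.0 CPM in library 13, 36.2 CPM in library 11 and 16.4 to 26.7 CPM in the others. Without library 13, 3 of the 7 averaged under 1 CPM and were not tested, and 3 of the remaining 4 were called.

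Transcripts of lung epithelium were far higher in libraries 11 and 12 than in the other 4. Scgb1a1, the secretoglobin of airway club cells, had 3546 counts in library 11 and 3439 in library 12, and 0 or 1 in each other library. Sftpc, the surfactant protein made by alveolar type II cells, had 2506 and 1750 counts in those 2 and 0 or 1 in the others. Cbr2, a lung carbonyl reductase, had 475 and 457 counts, and Sftpb, another surfactant protein, 363 and 199, with 0 in all 4 others. In CPM these were 242 and 235 for Scgb1a1, 171 and 120 for Sftpc, 32.4 and 31.2 for Cbr2 and 24.8 and 13.6 for Sftpb. The list, chosen after the values were seen, had 15 variable genes of 17 tested, and its 24 genes summed to 679 and 560 CPM in libraries 11 and 12 and 69.9 to 82.3 CPM in the others. Without libraries 11 and 12, 12 of the 17 averaged under 1 CPM and were not tested, so they had passed that minimum only through the libraries where they were high, and the 15 are a description. Of the 5 that remained, 1 was called.

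The covarying group led by these genes was the widest, with 65 genes, and also held Ager, Cldn18, Lamp3, Cxcl15, Sec14l3 and Dram1. The macrophage and neutrophil gene Lyz2 had 65.3 and 54.1 CPM in libraries 11 and 12 and 12.9 to 21.4 CPM in the others, and was not called without both (adjusted p = 0.663). Mfap4, a matrix protein, had 18.003 and 11.8 CPM there and 0.521 to 1.97 CPM elsewhere (adjusted p = 0.622 without both), and Gpx3, the secreted glutathione peroxidase, 19.2 and 13.5 CPM against 2.93 to 4.13 CPM (1.0 without both). Pecam1, an endothelial marker, had 21.3 and 18.2 CPM against 8.35 to 13.1 CPM, and Acta2, smooth muscle actin, 10.1 and 9.98 CPM against 2.24 to 5.63 CPM (adjusted p = 1.0 without both, for each). These macrophage, vessel and muscle genes therefore moved with the lung genes, and the part of the lung transcripts in their spread was not tested.

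Hbb-y, Xist and H19 were highest in library 11. Hbb-y, an embryonic globin, had 175 counts in library 11, 33 in library 12, 2 in library 13 and 0 in the rest. Xist, the RNA of the inactive X chromosome, had 104 counts in library 11, 44 in library 12, 17 in library 9, 12 in libraries 10 and 20 and 2 in library 13. H19, an imprinted fetal RNA, had 11.2 CPM in library 11, 8.74 CPM in library 13 and 0.292 CPM in library 9. In lists chosen after the values were seen, 4 of 8 tested fetal and imprinted genes and 3 of 6 X-inactivation and Y-linked genes were variable. Without library 11, Hbb-y averaged under 1 CPM and was not tested, and 3 of the other 7 fetal and imprinted genes were variable. Without libraries 11 and 12, Xist was likewise not tested, and 2 of the other 5 X-inactivation and Y-linked genes were variable. Without library 13, Usp9y averaged under 1 CPM and was not tested, and 1 of the other 5 genes of that list was variable. Adult globins did not follow this order, with Hba-a1 at 49.8 to 99.2 CPM and Hbb-bs at 71.7 to 128 CPM, neither called, and the 2 moved together (r = 0.944, exact permutation p = 0.00139, adjusted p = 0.00973; rho = 1.0, exact permutation p = 0.00278, adjusted p = 0.0195; r = 0.76 without libraries 11 and 20).

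Each list of markers of other cells had at most 1 variable gene, and several had few tested members. None of 6 tested red blood cell genes, 0 of 1 tested pancreatic acinar gene (Cela1, 12.4 to 17.8 CPM) and 0 of 1 tested neutrophil gene (S100a9) were variable, and no skeletal muscle marker reached 1 CPM on average (summed level 0.948 to 1.46 CPM). Of 12 endothelial markers 1 was variable (Pecam1), of 13 stellate cell and fibroblast markers 1 (Acta2), of 9 cholangiocyte markers 1 (Krt7) and of 2 lymphocyte genes 1 (Ighm). Of 5 adipocyte markers 1 was variable, Plin4, a lipid-droplet coat protein, with 9.43 CPM in library 9, 10.5 CPM in library 11 and 29.6 to 48.4 CPM in the rest. Of 4 mesothelium and gallbladder markers 1 was variable, Upk3b, with 5.95 CPM in library 12 and 0.651 to 2.81 CPM in the others. Each of these single calls except that of Plin4 was lost in at least 1 fit without a library or without libraries 11 and 12.

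Most called genes fell into covarying groups, which are a description. Over 6 libraries 1.67% of all pairs of tested genes had an absolute r over 0.9, and how far genes not called would group was not tested. Clustering of the 447 genes on 1 minus r gave 15 groups of at least 10 genes, with 12 to 65 genes each. Besides those named above, a group of 29 genes high in library 12 and low in library 9 held the elongase Elovl3 (78.3 to 258 CPM), the mitochondrial protease subunit Clpx (104 to 310 CPM) and Rpl38. A group of 28 genes high in libraries 9 and 11 held C4a (46.5 to 119 CPM) and Cobl. A group of 23 genes held Mup7, Ugt2b38 (2.46 to 19.5 CPM), Ugt1a9 (18.3 to 59.7 CPM) and Ppp1r3g (38.2 to 173 CPM), also highest in libraries 9 and 11. A group of 21 genes with Per2, Per3 and Coq10b (19.95 to 82.9 CPM) was low in libraries 12 and 13. A group of 15 with Bcl6, Setdb2 (36.2 to 142 CPM) and Phf11c (30.7 to 111 CPM) was low in library 10, and another of 15 with Rcan1 (45.2 to 222 CPM) and Ccrn4l (36.7 to 82.5 CPM) was high there. A group of 23 with Pfkfb3 (38.4 to 115 CPM), Plk3 and Nabp1 was low in libraries 12 and 20. Without library 12, Elovl3 (adjusted p = 0.165), Rpl38 (1.0), Clpx (0.0605), Plk3 (0.386) and Nabp1 (0.0885) were not called, and without library 10, Bcl6 (1.0), Setdb2 (1.0), Phf11c (0.841), Rcan1 (0.195) and Ccrn4l (0.754) were not. Cobl lost its call without library 9 (adjusted p = 0.21), 11 (0.149), 12 (0.0813) or 20 (0.0955).

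The library farthest from the median was 11 for 96 of the 447 genes (79 above), 12 for 92 (57 below), 10 for 72, 13 for 69 (52 above), 9 for 61 and 20 for 57 (44 below). Of all tested genes, 14.2% were farthest in library 11 and 18.5% in library 12, against 21.5% and 20.6% of the called genes. Each of the 6 libraries was thus the farthest one for some of the called genes.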

How the data were processed

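Total RNA was taken with TRIzol from frozen livers, and NEBNext libraries were sequenced. The authors deposited 1 table of whole-number read counts per gene, not normalized, with a gene length in bases; the submitters' processing notes name CASAVA, STAR and DESeq2, while neither a genome build nor a counting tool or strand setting was stated. Columns of the 6 norUDCA libraries were used and no column was left unmapped. Gene names are those of the table.

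Counts were scaled by TMM in edgeR 4.0.16 (R 4.3.3). Genes averaging 1 CPM or more were tested by the goodness-of-fit test of an intercept-only fit, at dispersion 0 for counting error and at the trended dispersion for spread above like genes, called at an adjusted p under 0.05. TPM used the deposited lengths. Pearson r and Spearman rho were taken on log2 CPM (prior count 2), with two-sided exact permutation p adjusted over the 28 pairs tested of 30 listed (the smallest possible p is 0.00139). Called genes were clustered by average linkage on 1 minus r, with the tree cut at 0.3. The test was checked on simulated counts of 11927 genes: of genes raised in 1 library, 31.3% were called at 2-fold, 97% at 4-fold and 100% at 8-fold, and 4 of 11598 unchanged genes were called. Every simulated gene was given the trended dispersion, the spread that the test assumes. The shares therefore hold for genes at that trend and do not give the rate of calls among real genes that scatter around it.

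Named genes were the 25 highest in TPM, the 20 called genes with the highest BCV from 5 CPM, the 10 steadiest from 20 CPM, up to 4 per list by deviance, a set of bile acid and detoxification genes, the members of the pairs, and up to 5 per covarying group. Members and lists were chosen with earlier results of these data known. Alternatives were other scalings (DESeq2 1.42.0 size factors, totals, upper quartile), other filters, thinning to the smallest library, other dispersions and leaving out each library. Some members of the lists are not reported here. Figures used matplotlib 3.10.9.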

Additional observations from a re-analysis of the deposited data

Results flagged for a closer look

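A library was set apart where its gap to the next one, divided by the range of the 6, was above Dixon's 95% critical value for 6 samples. Of 180 measures, 29 passed, while chance flags about 1 in 20. Many measures are genes named for their spread, and many of these move together, so nothing is read from that number. Library 13 was the high one for Usp9y (1.0), Cyp2b10 (0.938), Igtp (0.929), Tgtp1 (0.91), Marco (0.845), Gbp6 (0.816), Ddx3y (0.812), Irgm2 (0.799), Irgm1 (0.789), Isg15 (0.787), Uchl1 (0.672), Fgl1 (0.667), Nr0b2 (0.656), Cd5l (0.648) and Ctsc (0.646). It was the low one for Cyp8b1 (0.654) and Bhmt2 (0.651), and the Bhmt2 gap lay within a range of 266 to 275 CPM.

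Library 9 was the high one for Ccnb1 (0.746), Ccnd1 (0.744), Abcc2 (0.638) and Elovl6 (0.633), and the low one for Nub1 (0.656) and for the TMM scaling factor (0.654). Library 10 was the high one for Rcan1 (0.743) and the low one for Nipal1 (0.712). Library 11 stood apart in Hbb-y (0.811), library 12 in Arntl (0.651) and Rps21 (0.688) and library 20 in Gsta1 (0.663). These values describe single libraries, and their causes were not tested.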

How the results depend on the processing

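The count of 447 variable genes lay between 346 (minimum of 5 CPM) and 506 (DESeq2 dispersion trend) over the scalings, filters and dispersions tried, and between 371 and 390 without 1 library. Without libraries 11 and 12, an alternative chosen after seeing the data, it was 310. Genes above counting error numbered 7495 to 7763 without 1 library. The first principal component took 33.8% of the variance over all tested genes and 29.4% without called genes, against 49.4%, and 41.9% to 57.9% without 1 library. The 50 most abundant genes took 31.8% of counts with mitochondrial genes left out. Of the 25 most abundant genes, 24 to 25 stayed without 1 library, and 22 with lengths from GENCODE M21.

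The count of 8 pairs past the threshold was 0 to 5 without 1 library, where 5 libraries allow no p under 0.00833. With each library left out in turn, r ran from -0.427 to 0.647 for Isg15 and Ifit1, -0.252 to 0.858 for Cyp7a1 and Cyp8b1, -0.642 to 0.809 for Cyp3a11 and Cyp2b10, -0.968 to 0.544 for Cyp7a1 and Nr0b2 and -0.55 to 0.722 for Cyp4a14 and Cyp4a10. The sign changed without library 13, and without library 20 for the Cyp4a pair. The cause was not tested. Of the 174 named genes, 26 lost their call without library 13 and 10 to 18 without any other single library. No paired analysis was possible because only 1 group was analysed. With 6 libraries and 14065837 to 15342922 counts each, a 2-fold change in 1 library is mostly below what the test can call.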
